A study of Mus musculus with 6 samples.

Results

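Genes that build actin filaments, and genes of the Rac and Cdc42 switches that direct this building, were examined in the spinal cord of mice with and without Nogo-A. The set was a list of 43 genes of actin, the Arp2/3 complex, formins, WASP and WAVE proteins, PAK kinases, Rac, Cdc42 and their regulators, with the genes of the RhoA, ROCK, LIMK and cofilin axis left out. Every probe set of the array that the platform annotation gives to exactly 1 of these genes was taken, which found 116 of the 45101 probe sets on the array, for 39 of the 43 genes. Arpc1b shares its 2 probe sets with another symbol and is not reported, and no probe set was listed under the single symbols Arpc3, Pak1 and Arhgdia. Of the 116 probe sets, 3 are control probe sets of Actb, 22 were too dim to be tested, and 91 were tested, with at least 1 for each of the 39 genes.

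The series compared untreated adult C57Bl/6 wild type mice with Nogo-A knockout mice on the C57Bl/6 strain. All were male and aged 4 months, with 3 animals of each genotype and 1 Affymetrix Mouse 430 2.0 array per animal. Total RNA came from spinal cord, a tissue that mixes neurons, glia, vessels and the coverings of the cord, so fewer cells of a type and less RNA per cell cannot be told apart. The labels do not say how the knockout allele was made or in which cells it acts. Values are intensities, called signals here, and the fold of a probe set is knockout over wild type from the mean log2 signals of the 3 animals.

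Actin is stored as single molecules bound to profilins and thymosins and is built into filaments at their fast-growing ends. The Arp2/3 complex starts branches when WASP and WAVE proteins activate it, formins and Ena/VASP proteins extend filaments, and capping protein, gelsolin and tropomodulins close or cut them. Rac and Cdc42 are small GTPases that switch on this machinery at the edge of growth cones and of oligodendrocyte processes. Exchange factors load them with GTP, GTPase activators turn them off, and PAK kinases act after them. In neurons, signalling by Nogo-A through its receptors is known to act on growth cone actin.

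Promoters of 37 member genes were available from RefSeq on build GRCm38.p6, and 250 bases before the start of each were searched for the CArG box, the site of serum response factor, whose coactivator is held back by single actin molecules. No promoter was found by symbol for Actb, Rac1, Rnd1, Rnd2, Diaph1 and Cttn, so these genes were not searched. The box reads alike on both strands, and no other motif was searched. It was found in 3 member genes, Actg1, Arpc4 and Rnd3, which is 8.11% of the 37, against 1.62% of 27025 genes, and in 1.47% of all 32851 promoter windows of this length. The 3 are shown because they carry the box and lie in different roles: an actin, a branching subunit and a GTPase. Actg1 spans chr11:120348496-120348745 on the minus strand, with the box at bases -90 to -81 from the start. Arpc4 spans chr6:113377863-113378112 on the plus strand, with the box at -250 to -241. Rnd3 spans chr2:51149112-51149361 on the minus strand, with the box at -100 to -91. Each is written 5′ to 3′ with the box in capitals.
Actg1: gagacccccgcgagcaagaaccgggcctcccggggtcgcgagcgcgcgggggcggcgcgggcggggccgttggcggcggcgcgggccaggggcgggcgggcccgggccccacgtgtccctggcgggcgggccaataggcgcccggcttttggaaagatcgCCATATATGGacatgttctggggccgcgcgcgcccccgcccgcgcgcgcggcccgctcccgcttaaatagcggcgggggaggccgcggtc
Arpc4: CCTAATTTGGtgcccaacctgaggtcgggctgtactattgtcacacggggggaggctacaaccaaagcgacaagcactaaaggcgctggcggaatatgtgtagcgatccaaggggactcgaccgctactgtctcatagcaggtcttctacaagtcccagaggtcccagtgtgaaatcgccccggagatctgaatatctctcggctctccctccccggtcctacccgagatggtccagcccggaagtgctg
Rnd3: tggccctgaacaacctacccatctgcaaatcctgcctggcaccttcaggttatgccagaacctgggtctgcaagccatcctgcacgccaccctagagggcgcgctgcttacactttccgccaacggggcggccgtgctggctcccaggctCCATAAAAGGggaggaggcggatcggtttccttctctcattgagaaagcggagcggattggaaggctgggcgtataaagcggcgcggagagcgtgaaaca
The brightest probe sets of these genes had folds of 1.14, 1.12 and 0.971, none with an unadjusted p under 0.05 in limma. The dimmer Arpc4 probe set had a fold of 1.35 (limma, unadjusted p = 0.0251). A match is a run of letters and was not tested as a site in these animals.

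The targeted gene Rtn4 had 5 probe sets. One was bright in wild type alone, with signals of 3560.2, 2790.4 and 2802 in the 3 wild type animals against 78.2, 9.17 and 5.08 in the 3 knockouts, each in replicate order, and it was the only 1 of 23546 tested probe sets with a limma adjusted p under 0.05 (adjusted p = 0.0149). That call was lost on leaving out knockout replicate 2 (adjusted p = 0.125) or its wild type counterpart in number (adjusted p = 0.165, limma in both). The other 4, at 8971 ± 945 and 13157 ± 863, 1899 ± 405 and 2572 ± 71.7, 858 ± 138 and 1390.1 ± 215 and 18854 ± 2989 and 24626 ± 94 in the respective genotypes (wild type, then knockout; SD, n = 3 each), had no overlap, with knockout above, and adjusted p-values of 0.537 to 0.591 in limma. Arrays differed in their dim signals, with 5th percentiles of 5.26 to 19.97 in wild type and 4.57 to 4.91 in knockout. Wild type replicate 3 had the lowest mean correlation with the others, 0.930 against 0.951 to 0.961. Skeletal muscle markers (8 of 8 found) reached sums of 6922 in the wild type array of replicate 3 and 14423 in that of knockout replicate 2, and of 1262 to 2330.2 on the other 4 arrays. Markers of the cord's main cells were present: 9 of 9 neuronal, 8 of 9 oligodendrocyte and 6 of 6 astrocyte markers were found, and none lay below the array median on every array.

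No actin or Rac/Cdc42 gene passed the threshold. Of the 91 tested probe sets, 0 had an adjusted p under 0.05 in limma, where 0.00425% of all tested probe sets passed on the lower side and 0.0% on the higher side, and the smallest adjusted p was 0.591. At an unadjusted p under 0.05 in limma, 13 member probe sets of 9 genes were higher in knockout and 3 of 3 genes were lower. The 13 are 14.3% of the members, against 4.3% of all tested probe sets, and the 3 are 3.3% against 3.98%. Of the 13, 12 passed the signal filter in both genotypes. The remaining 1, the dimmest tested probe set of Fscn1, passed through the knockout arrays alone, which favours a higher value there, and is no support for the count. Most of the changes were small. A fold under 1.2 either way was found in 68 of the 91, and the median size of the log2 change was 0.15 in the members and 0.15 in all tested probe sets. The median signed log2 change was 0.076, with 57 of 91 above 0, against 0.0077 and 51.4% over all. The count on the higher side was 5 after quantile normalization of the arrays (5.49% of members, with 3.67% over all), 4 in limma without its intensity trend (4.4%, with 2.96% over all), and 4 without knockout replicate 1 or 3 (4.4% each, with 2.12% and 1.66% over all). It was 8 without knockout replicate 2 (8.79%, with 3.64% over all) and 20 with each array scaled to its median (22.0%, with 11.9% over all), a scaling under which the whole array had a median log2 change of 0.23. The same Fscn1 probe set was among the 5, the 4 without the trend and the 20. A filter at the 75th percentile of signal left 12 of 67 higher (17.9%, with 6.67% over all) and 3 lower (4.48%, with 2.11%). On the lower side the counts were 3 after quantile normalization (3.3%, with 2.8% over all), 3 without the trend (3.3%, with 4.85%) and 1 with the median scaling (1.1%, with 1.12%). They were 2 without any 1 knockout replicate (2.2% each, with 2.57%, 3.14% and 2.35% over all for replicates 1, 2 and 3). The median log2 change of the members was 0.12 without wild type replicate 1, 0.033 without replicate 3 of that genotype and 0.026 after quantile normalization. The plot of changes by role shows the fitted change of every tested member.

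**Figure D1:**
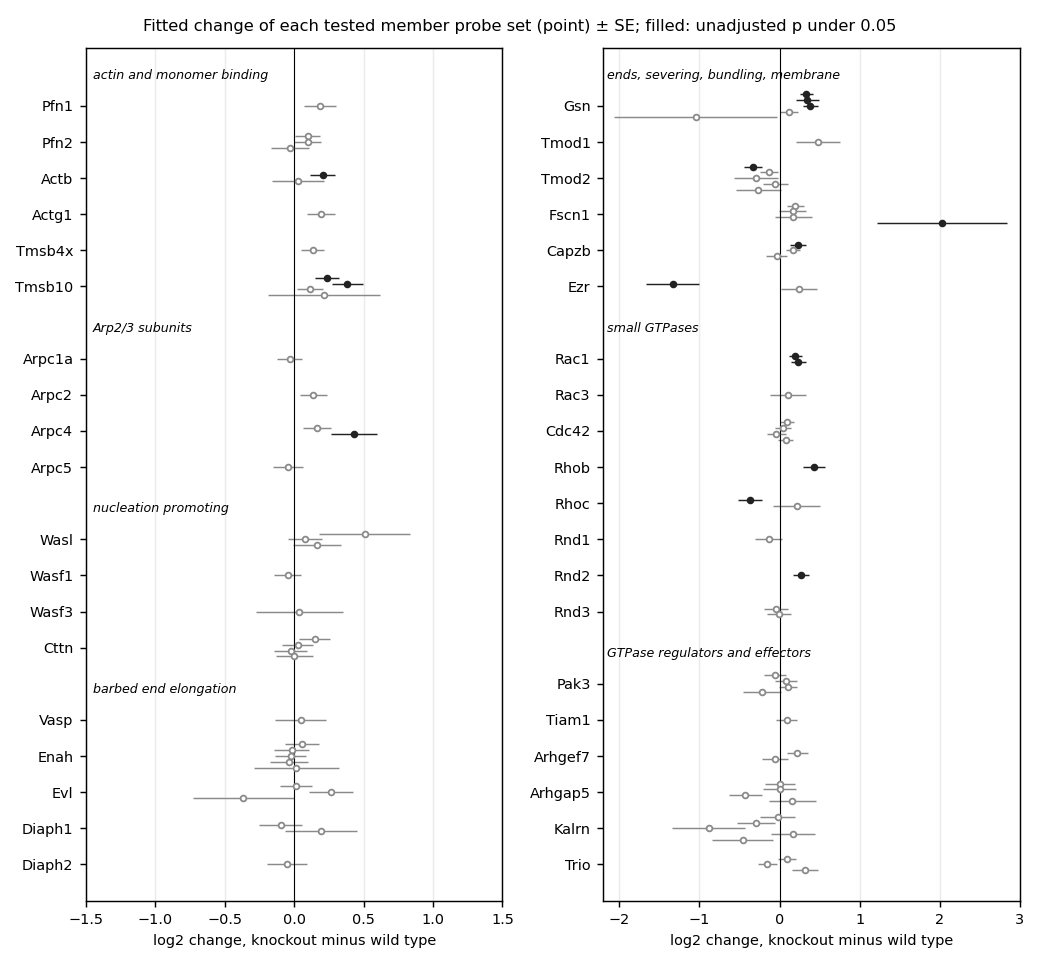
Each point is 1 tested probe set, drawn at its log2 change (knockout minus wild type, x axis) with its standard error as a bar, beside the gene it belongs to and under the gene's role. Filled points have an unadjusted p under 0.05. The panels have different x ranges. Nearly all points lie close to 0, with the brighter readings of Gsn and those of Tmsb10, Rac1, Rhob and Rnd2 to the right. The points far from 0 are 1 reading of Ezr, the dim one of Gsn and 1 of Kalrn to the left, and the dimmest of Fscn1 to the right. That Kalrn point entered the test through its wild type arrays alone and the Fscn1 point through its knockout arrays alone. Nothing is read from the distance of either.

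Genes of actin itself and of the proteins that hold single actin molecules were measured by 12 tested probe sets. Of these 3 were higher at an unadjusted p under 0.05, 0 were lower and 9 were not called, against 4.3% higher and 3.98% lower over all. The median log2 change was 0.16, but 0.031 after quantile normalization. The brightest probe set of Actb, the cytoplasmic beta actin, read 31528, 31089 and 26863 in the 3 wild type animals against 33104, 34238 and 35477 in the 3 knockouts, each in replicate order. All knockout arrays lay above all wild type arrays, and wild type replicate 3 was the lowest. The fold was 1.15 with a 95% interval of 1.01 to 1.31 (limma, unadjusted p = 0.0388, adjusted p = 0.598). After quantile normalization the log2 change went from 0.20 to 0.031 (limma, unadjusted p = 0.516). The call was lost in 10 of 15 alternatives, leaving out any 1 knockout array among them. The dimmer Actb probe set read 1955 ± 534 in wild type against 1959 ± 323 in knockout (SD, n = 3 each), a fold of 1.02, and its groups overlapped.

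The 3 control probe sets of Actb, which read the 3′ end, the middle and the 5′ end of its transcript, were not tested. Their means, in this order, were 33119, 21416 and 22514 in wild type against 36363, 24085 and 25688 in knockout. The groups met without overlap at the 3′ one, which read 35299, 34744 and 29315 in wild type against 35465, 37787 and 35835 in knockout. They overlapped at the middle one, which read 22930.00, 22239 and 19077 in wild type against 22614, 25118 and 24523 in knockout, and at the 5′ one, which read 23972, 22393 and 21178 in wild type against 23859, 26471 and 26734 in knockout. The ratio of the 3′ to the 5′ signal, a sign of how complete the RNA was, lay between 1.38 and 1.55 in wild type and between 1.34 and 1.49 in knockout. These ranges overlapped.

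Actg1, the gamma actin, read 21251, 21394 and 16933 in the 3 wild type animals against 22401, 22334 and 23027 in the 3 knockouts, each in replicate order. Its groups did not overlap, and the fold was 1.14 with a 95% interval of 0.982 to 1.33 (limma, unadjusted p = 0.078). Wild type replicate 3 was the lowest, and without it the log2 change went from 0.19 to 0.083. The suffix s in the name of this probe set marks probes that several transcripts can share. Of the thymosins, small proteins that hold actin back from filaments, Tmsb4x read 26093, 27392 and 23358 in the 3 wild type animals against 27620.00, 27986 and 28499 in the 3 knockouts, each in replicate order, a fold of 1.1 with an interval of 0.965 to 1.25. Its log2 change was 0.13, and -0.0060 after quantile normalization.

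Tmsb10, the other thymosin, had 4 tested probe sets, all with a fold above 1. The second brightest read 6117, 4893 and 6567 in the 3 wild type animals against 7489, 7262 and 7994 in the 3 knockouts, each in replicate order, with every knockout array above every wild type array. Its fold was 1.3 with an interval of 1.1 to 1.55 (limma, unadjusted p = 0.00623, adjusted p = 0.591). It kept an unadjusted p under 0.05 in all 15 alternatives run, with p-values from 0.000503 to 0.0467. The brightest read 17446, 20605 and 18161 in wild type against 21827, 21338 and 22807 in knockout, also without overlap, at a fold of 1.18 (limma, unadjusted p = 0.0215). Its call was lost in 5 of the 15, and quantile normalization took its log2 change from 0.23 to 0.096 (unadjusted p = 0.215). The remaining pair did not follow as far: 1 read 3984 ± 177 and 4308 ± 266 and the other 351 ± 181 and 369.97 ± 119 in the respective genotypes (wild type, then knockout; SD, n = 3 each), with folds of 1.08 and 1.16. Microglial markers (9 of 10 found) summed to 10915 to 14970.4 in wild type and 10974 to 12430.2 in knockout, and endothelial markers (5 of 5) to 2948 to 4151 and 2795 to 3396, both with overlap. Their part in the Tmsb10 result was not tested. The suffix x in the name of the second brightest marks probes that can also match other transcripts. The suffix s in the name of the brightest marks probes that several transcripts can share.

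The profilins feed actin to growing filament ends. Pfn1 read 2777, 2674 and 3282 in wild type against 3047, 3168 and 3689.99 in knockout, with overlap and a fold of 1.14. Pfn2, the profilin of neurons, had 3 tested probe sets with folds of 1.07, 1.07 and 0.979. The brightest read 24899, 25825 and 21653 in wild type against 25337, 26179.7 and 25593 in knockout, with overlap and an interval of 0.935 to 1.22.

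Bright members were often lowest on wild type replicate 3, and so were bright probe sets in general. Among the 21 member probe sets with a mean signal of at least 5000, this array was the lowest of the 6 in 12, or 57.1%. Among all 1199 tested probe sets at that level it was the lowest in 67.7%. In that class 20 of 21 members had a change above 0, with a median of 0.195, against 86.7% and a median of 0.11 over all. The share called higher was 47.6% of the members and 16.8% of all, and 0 members and 0.334% of all were called lower. The 10 member calls were 3 of Gsn, 2 each of Tmsb10 and Rac1, and 1 each of Actb, Rhob and Capzb. Probe sets of 1 gene are not separate results, so the member share counts some genes more than once. Without wild type replicate 3 the medians were 0.13 and 0.060. Below a mean signal of 500 the members had a median of 0.036 and all probe sets -0.072, and between 500 and 2000 the values were -0.0044 and 0.022. Most members are bright: 73.6% were at or above the 75th percentile of signal, against 47.8% of all tested probe sets. The spread among replicates in the bright class was wider in wild type, with a median coefficient of variation of 10.8% against 3.91% in knockout for the members and 9.09% against 4.94% for all. The part of this array and of signal level in the members' changes was not tested further.

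**Figure D2:**
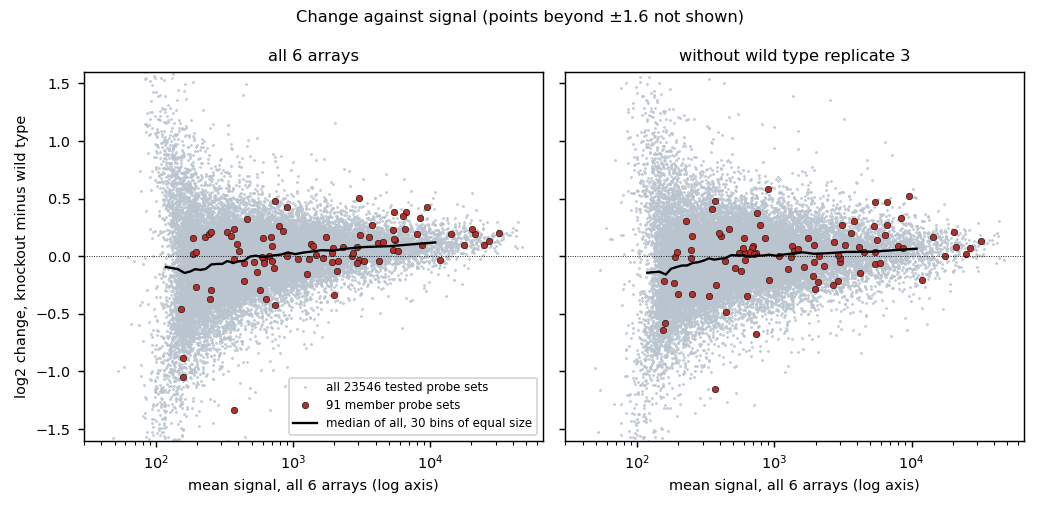
Both panels plot the log2 change (knockout minus wild type) against the mean signal of the 6 arrays on a log axis, for all 23546 tested probe sets (grey) and the 91 members (red), with the running median of all as a black line. With all 6 arrays (left) the line climbs from below 0 at dim signals to above 0 at bright ones, and without wild type replicate 3 (right) it climbs less.

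The Arp2/3 complex, which starts filament branches, had 4 of its 6 listed genes tested, on 5 probe sets. Of these 1 was higher at an unadjusted p under 0.05, 0 were lower and 4 were not called, against 4.3% higher and 3.98% lower over all. Arpc4 was the subunit with that call, at its dimmer probe set, which read 717, 690.4 and 961 in the 3 wild type animals against 1034, 903 and 1246 in the 3 knockouts, each in replicate order. Knockout replicate 2 lay below wild type replicate 3, so the groups overlapped, and the fold was 1.35 with an interval of 1.05 to 1.74 (limma, unadjusted p = 0.0251). The call was lost in 6 of 15 alternatives, among them the fit without the trend (unadjusted p = 0.0575) and leaving out knockout replicate 1 (0.0522) or 3 (0.122) or wild type replicate 1 (0.0767) or 2 (0.0909), and its log2 change ran from 0.31 to 0.69. Its brighter probe set read 1636, 1673 and 1650.3 in wild type against 1849.97, 1923 and 1782 in knockout, with no overlap but a smaller fold of 1.12.

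Other subunits were close to even. Arpc1a had a fold of 0.976 with an interval of 0.852 to 1.12, and Arpc5 one of 0.97 with an interval of 0.82 to 1.15. Arpc2 read 5298 ± 67.4 and 5849.7 ± 609 in the respective genotypes (wild type, then knockout; SD, n = 3 each), a fold of 1.1. The groups overlapped in all 3 genes, and the Arpc2 interval was 0.949 to 1.28.

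The activators of Arp2/3 had 9 tested probe sets and 0 calls in either direction, against 4.3% higher and 3.98% lower over all. Wasf1, a WAVE protein of neurons, was even across arrays, at 1968, 1977 and 1966 in wild type against 1896, 1864 and 1959 in knockout. Its wild type values all lay above its knockout values, but the fold was only 0.967 (limma, unadjusted p = 0.626). Wasl, which encodes N-WASP, had 1 array apart from the rest. Its brightest probe set read 3837, 3466 and 1221 in the 3 wild type animals against 3557, 3651 and 3588 in the 3 knockouts, each in replicate order, with wild type replicate 3 far below the other 5. The fold was 1.42. The log2 change was 0.51, and -0.019 without that array. Its other probe sets had folds of 1.05 and 1.12. Wasf3, a dimmer WAVE gene, had a fold of 1.02 with an interval of 0.637 to 1.65, and Cttn, whose product cortactin holds branches in place, had folds of 0.981 to 1.11 over 4 probe sets.

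Genes that extend filaments at the fast-growing end also had 0 calls, over 12 tested probe sets, against 4.3% higher and 3.98% lower over all. Their median log2 change was -0.0031. Enah, an Ena/VASP protein of growth cones, had folds of 0.976 to 1.04 over 5 probe sets, and its brightest read 5342 ± 881 in wild type against 5503 ± 419 in knockout (SD, n = 3 each). Vasp had a fold of 1.03. Evl had folds of 0.774, 1.01 and 1.2, of which the middle value belongs to the brightest. Of the formins, Diaph1 had folds of 0.934 and 1.14 and Diaph2 one of 0.964.

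Genes that cap, cut, bundle or anchor filaments held the widest changes, at the dimmest probe set of Fscn1 and 1 of Ezr. Of 20 tested probe sets 5 were higher and 2 lower at an unadjusted p under 0.05, and 13 were not called. Over all tested probe sets 4.3% were higher and 3.98% lower. Of the 5, 3 belong to the single gene Gsn. The dimmest Fscn1 probe set is among the 5. It entered the test through its knockout arrays alone and is no support for the count or for the width of the changes. Gsn, which encodes the filament-severing protein gelsolin and is known to be abundant in oligodendrocytes, was the gene called at most probe sets, 3 of 5. The brightest read 7296, 7636 and 7438 in the 3 wild type animals against 9746, 9043 and 9386 in the 3 knockouts, each in replicate order. Every knockout signal lay above every wild type signal, and the replicates of each genotype were close together. The fold was 1.26 with an interval of 1.11 to 1.43 (limma, unadjusted p = 0.00177, adjusted p = 0.591). Its name carries the suffix x, which marks probes that can also match other transcripts. The names of the other tested Gsn probe sets carry it too, except the one given next.

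A probe set of Gsn whose name carries no sign of shared probes read 4479.5, 4441 and 5349 in the 3 wild type animals against 6354, 5950.2 and 6286 in the 3 knockouts, each in replicate order, again with no overlap. Its fold was 1.31 with an interval of 1.12 to 1.52 (limma, unadjusted p = 0.00236). Both kept an unadjusted p under 0.05 in all 15 alternatives run, with p-values of 0.000808 to 0.0184 and of 7.21e-05 to 0.0238. A further probe set read 5729, 6938 and 4518 in wild type against 7771, 7452 and 6369 in knockout, a fold of 1.27 with overlap, and its call was lost in 8 of the 15. The next read 4368 ± 528 and 4734 ± 360.4 in the respective genotypes (wild type, then knockout; SD, n = 3 each), a fold of 1.09. The dim one read 223, 72.8 and 719.6 in wild type against 18.3, 197 and 366 in knockout, too scattered to give a direction.

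Oligodendrocyte markers, taken as a sum, were higher in knockout than in wild type, as were the Gsn probe sets without overlap. Within knockout the sum was highest on replicate 3 and the brightest Gsn probe set on replicate 1, and both were lowest on replicate 2. Nothing is read from the order of 3 arrays. The 8 of 9 listed markers that were found, Cldn11, Cnp, Mag, Mbp, Mobp, Mog, Myrf and Opalin, summed to 108232 to 111655 in wild type and 124399.6 to 137540.2 in knockout, without overlap. Of them 6 of 8 had a change above 0, while Mog and Cldn11 lay below it, at folds of 0.973 and 0.954. The median log2 change of the 8 was 0.26, and 4 of them were higher at an unadjusted p under 0.05 (limma). Schwann cell markers, of which 2 of 4 were found, summed to 13063 to 15440.4 and 16035 to 22387. Most of that sum was Pmp22, with means of 13372 and 18390 against 655 and 835 for Ncmap. Meningeal fibroblast markers (6 of 6 found) summed to 6686 to 8343 and 9597 to 10733. Of these 4 were higher at an unadjusted p under 0.05. Lum was lower without overlap, at a fold of 0.7225 (limma, unadjusted p = 0.0131), and Slc6a13 had a fold of 1.07 with overlap. Neuronal markers summed to 98377 to 119505 and 118161 to 120793, and astrocyte markers to 47622 to 53054 and 50871 to 53209.6. The part of these cell types in the Gsn result was not tested.

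**Figure D3:**
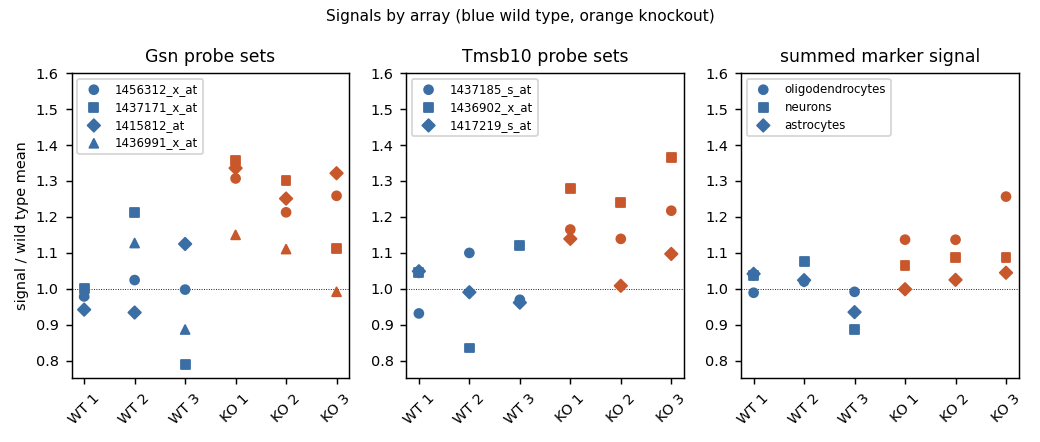
Signals of the 4 brighter Gsn probe sets (left), the 3 brighter Tmsb10 probe sets (middle) and the summed marker signals of oligodendrocytes, neurons and astrocytes (right) are shown for each array, as a ratio to the mean of the 3 wild type arrays (dotted line at 1). Blue marks wild type and orange knockout. The circles and diamonds of Gsn and the oligodendrocyte sum lie higher on all knockout arrays than on any wild type array, and the astrocyte sum does not.

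Tmod2, a tropomodulin that caps the slow end of filaments in neurons, was lower in direction throughout. All 5 of its tested probe sets had folds below 1, from 0.793 to 0.963. The one called read 2049, 2281 and 2404 in the 3 wild type animals against 1605, 1875 and 1865 in the 3 knockouts, each in replicate order, with every wild type signal above every knockout signal (limma, unadjusted p = 0.0124, adjusted p = 0.591). Its interval was 0.669 to 0.941, and the call was lost without knockout replicate 1 (unadjusted p = 0.0718). It was also lost after scaling to the per-chip median (0.528), which shifts all probe sets upward in knockout. Relative to that shift the log2 change was -0.34, against -0.33 before. A second probe set of similar brightness read 2329, 2346 and 1915 in wild type against 2082, 2045 and 1884 in knockout, a fold of 0.915 with overlap. Tmod1, the related gene, went the other way with a wide spread, at 1071, 431 and 542 in wild type against 1019.8, 912 and 733 in knockout and a fold of 1.4. Wild type replicate 1 was the highest of all 6 there, so the groups overlapped.

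Ezr, which encodes ezrin, a link between actin and the cell membrane, gave opposite readings at 2 probe sets. One read 369, 718 and 756 in the 3 wild type animals against 257, 333 and 146 in the 3 knockouts, each in replicate order, a fold of 0.397 with an interval of 0.239 to 0.657 (limma, unadjusted p = 0.00196, adjusted p = 0.591). Every wild type signal lay above every knockout signal, and of the 15 alternatives only the methods' t-test lost the call. Its unadjusted p there was 0.0510. The other, of similar brightness, read 296, 282 and 474 in wild type against 418, 443 and 353 in knockout, a fold of 1.18 with overlap (limma, unadjusted p = 0.303). No direction can be given for the gene from these readings, and the probes of the first may match other transcripts, as its suffix x marks.

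Capzb, the beta subunit of capping protein, read 5074, 4630.1 and 5208 in wild type against 5778, 5273 and 6408 in knockout at its brightest probe set, a fold of 1.17 without overlap (limma, unadjusted p = 0.0459). The call was lost in 7 of 15 alternatives, among them quantile normalization (unadjusted p = 0.184) and leaving out knockout replicate 1 (0.101) or 3 (0.199) or wild type replicate 1 (0.0590) or 2 (0.148). A second probe set had a fold of 1.12, also without overlap, and the third 0.974. Fscn1, which encodes the bundling protein fascin, had a fold of 1.15 at its brightest probe set, which read 7903, 8107 and 6419.5 in wild type against 8787, 8153 and 8651 in knockout. Its dimmest tested probe set read 102, 12.4 and 53.1 in wild type against 133, 152 and 227 in knockout. It entered the test through its knockout arrays alone, since the wild type signals all lay below the medians of their arrays, 148 to 195, so no fold is given and nothing is read from its call. The plot of the called probe sets shows these readings side by side.

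**Figure D4:**
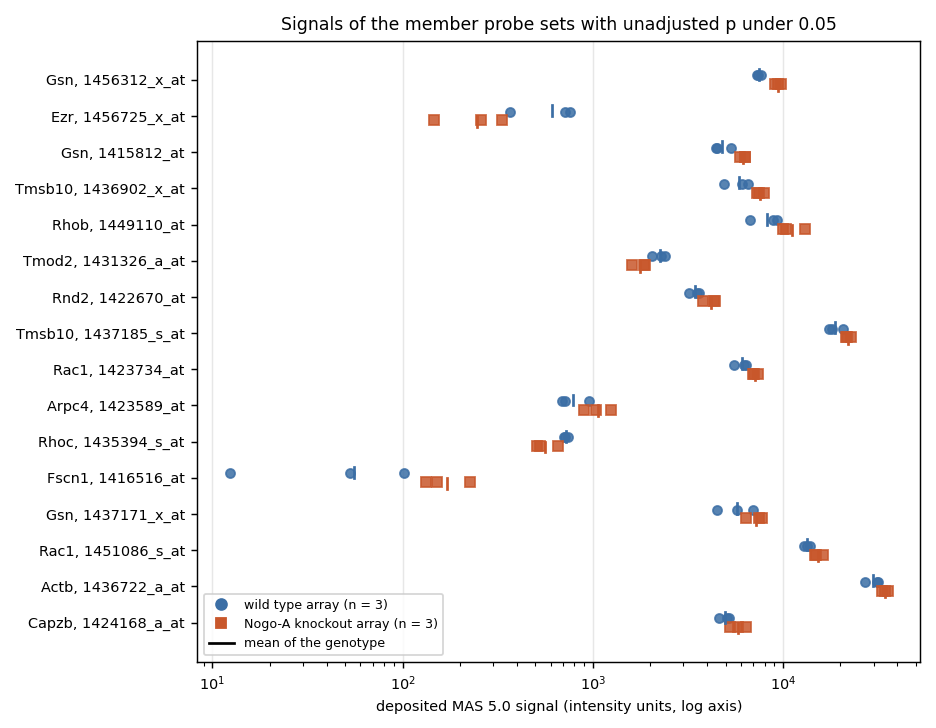
Deposited signal (x axis, intensity units, log scale) of the 16 member probe sets with an unadjusted p under 0.05, ordered from the smallest p at the top. Circles are the 3 wild type arrays, squares the 3 knockout arrays, and short vertical lines the genotype means. The groups are apart in 14 of the 16 and overlap in 1 Arpc4 and 1 Gsn probe set, and the distances are small beside the range of signals. The Fscn1 probe set among the 14 entered the test through its knockout arrays alone, so nothing is read from its separation.

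The small GTPases had 14 tested probe sets, with 4 higher, 1 lower and 9 not called at an unadjusted p under 0.05. Over all tested probe sets 4.3% were higher and 3.98% lower. Rac1, the switch for sheet-like protrusions, was higher at both of its tested probe sets. The brighter read 13863, 13396 and 12829 in the 3 wild type animals against 14825, 14882 and 16200.2 in the 3 knockouts, each in replicate order, a fold of 1.15 with an interval of 1.01 to 1.3 (limma, unadjusted p = 0.0362). The dimmer read 6268, 5559.99 and 6419 in wild type against 6993, 7046 and 7405 in knockout, a fold of 1.18 (limma, unadjusted p = 0.0241). In both, all knockout arrays were above all wild type arrays, and both calls were lost after quantile normalization, at unadjusted p-values of 0.258 and 0.143. Over the 15 alternatives the brighter lost its call in 9 and the dimmer in 6, and both lost it on leaving out any knockout replicate or wild type replicate 2. The name of the brighter carries the suffix s, which marks probes that several transcripts can share.

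Cdc42, the switch for finger-like protrusions, showed no such separation. Its brightest probe set read 9175, 7962 and 8124 in the 3 wild type animals against 8604, 9299 and 9073 in the 3 knockouts, each in replicate order, and the groups overlapped. The folds of its 4 probe sets were 1.07, 1.03, 0.973 and 1.05, and the interval of the brightest was 0.933 to 1.23. The test of whether Rac1 and Cdc42 differ in their response was not made. Rac3, a Rac of neurons, had a fold of 1.08 with a wide interval of 0.769 to 1.51.

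Rhob, a GTPase of endosomes that cells induce under stress, had the largest fold among the 21 members with a mean signal of at least 5000. It read 8883, 6679 and 9271 in the 3 wild type animals against 10350.5, 9987 and 13034 in the 3 knockouts, each in replicate order, and even the lowest knockout array was above the highest wild type array. The fold was 1.35 with an interval of 1.09 to 1.67 (limma, unadjusted p = 0.00975, adjusted p = 0.591). The call was lost in 4 of 15 alternatives. In limma these were leaving out knockout replicate 3, the highest array (unadjusted p = 0.0559), quantile normalization (0.0591) and the fit without the trend (0.0501). It was also lost in the methods' t-test (unadjusted p = 0.0873). Rhoc, a GTPase linked to cell motility, was lower at its brighter probe set, with 715, 707 and 745 in the 3 wild type animals against 659.96, 507 and 525 in the 3 knockouts, each in replicate order. The fold was 0.775 with an interval of 0.621 to 0.969 (limma, unadjusted p = 0.0287), and the groups did not overlap. The call was lost in 6 of 15 alternatives, among them leaving out knockout replicate 2 (unadjusted p = 0.109) or 3 (0.0921), wild type replicate 1 (0.0505) or 2 (0.0508), or both arrays of high muscle signal (0.130). It was also lost under per-chip median scaling, where its log2 change relative to all probe sets was -0.37, against -0.37 before. The dimmer probe set went the other way at 1.16 with overlap. The name of the brighter Rhoc probe set carries the suffix s, which marks probes that several transcripts can share. That of the dimmer does not.

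The Rnd proteins are GTPases that stay bound to GTP and oppose contractility. Rnd2, a Rnd protein of neurons, read 3541, 3201 and 3620.2 in the 3 wild type animals against 4371, 3815 and 4328 in the 3 knockouts, each in replicate order, and the groups did not overlap. Its fold was 1.21 with an interval of 1.04 to 1.4 (limma, unadjusted p = 0.0188), and the call was lost in 5 of 15 alternatives, among them quantile normalization (0.0814) and leaving out knockout replicate 1 (0.0832) or 3 (0.0690) or wild type replicate 2 (0.0744). Rnd1 read 585 ± 119.9 and 526 ± 31.3 in the respective genotypes (wild type, then knockout; SD, n = 3 each), and Rnd3 had folds of 0.971 and 0.997. Neither Rnd1 nor Rnd3 was called.

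Regulators and effectors of the GTPases had 19 tested probe sets over 6 genes and 0 calls, against 4.3% higher and 3.98% lower over all. Of the exchange factors, Tiam1, which loads Rac1, read 682 ± 26.4 in wild type against 728 ± 58.2 in knockout (SD, n = 3 each), a fold of 1.07. Arhgef7, which encodes the PAK partner beta-PIX, read 794, 849 and 722 in wild type against 1021, 863 and 879 in knockout at its brighter probe set, a fold of 1.17 without overlap, while the dimmer had 0.962. Trio, an exchange factor that acts on Rac1, had folds of 0.899, 1.06 and 1.25, of which the middle value belongs to the brightest. Kalrn, its relative of dendritic spines, was dim. Of its 5 probe sets, the one with the lowest fold entered the test through its wild type arrays alone. That route favours a lower value in knockout, so no fold is given for it. The others had folds of 0.726 to 1.12.

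Arhgap5, a GTPase activator of the p190 family, and Pak3, a PAK kinase of neurons, depended on wild type replicate 3. Arhgap5 read 3243, 3127 and 1894 in wild type against 2659, 3041 and 2399 in knockout at its brightest probe set, a fold of 1. Over its 4 probe sets the folds ran from 0.744 to 1.12, the lowest with an interval of 0.548 to 1.01 (limma, unadjusted p = 0.0572, and 0.000349 without that array). Pak3 read 3131, 3509 and 2374 in wild type against 2829.8, 2988 and 2755 in knockout, a fold of 0.963, and its 4 probe sets ran from 0.86 to 1.07. That array was the lowest of the 6 at the brightest probe set of both. Without it 9 members, 9.89% against 5.18% of all tested probe sets, were lower at an unadjusted p under 0.05. Of the 9, 2 were probe sets of Arhgap5 and 2 of Pak3, with 1 of Pfn2 and 1 more of Tmod2 besides the 3 called with all arrays. At the brightest probe set the log2 change went from 0.0047 to -0.25 for Arhgap5 and from -0.054 to -0.21 for Pak3. Without it 15 members were higher (16.5% against 6.32%), of which 12 were among the 13. The 12 include the dimmest Fscn1 probe set, which is no support for the count.

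The probe sets of a gene often did not point the same way. Of 23 genes with 2 or more tested probe sets, 6 had all changes above 0 and 2 had all below 0. The 6 were Actb, Arpc4, Fscn1, Rac1, Tmsb10 and Wasl, and the 2 were Rnd3 and Tmod2. The rule of the study design, a 1-factor test at p under 0.05 together with a minimum fold of 1.2, took 4 member probe sets on the higher side (4.4%, with 2.24% over all) and 2 on the lower (2.2%, with 2.59% over all). They were 2 of Gsn, 1 each of Tmsb10 and Rnd2, and 1 each of Tmod2 and Rhoc. After Benjamini-Hochberg adjustment 0 of them passed. The genotypes did not overlap in 17 member probe sets with knockout higher (18.7%, with 7.84% over all) and in 4 with knockout lower (4.4%, with 6.62%). The dimmest Fscn1 probe set is among the 17 and is no support for that count.

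The 22 dim probe sets that were not tested had signals of 1.31 to 260.2 and belonged to 17 genes that each also had a tested one. No comparison was made of them.

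Related genes of the same pathways gave few calls as well. Of 132 listed genes that are not members, 107 were tested at their brightest probe set, and 7 were higher and 0 lower at an unadjusted p under 0.05 (6.54% higher, with 4.93% of 11651 genes over all), and 0 passed after adjustment in limma. Among the 39 members taken the same way, 7 were higher and 1 lower (17.9% and 2.56%, with 4.93% and 3.24% over all). Leaving out single arrays moved these counts and the share over all genes, not always in the same direction. The fit without knockout replicate 2 is not listed here. Without knockout replicate 1 there were 2 member genes and 4 other genes higher, where 2.57% of all genes were higher, and 1 member gene and 0 other genes lower, where 2.14% were. Without knockout replicate 3 there was 1 of each higher (1.9% of all) and 0 of each lower (1.92%). With wild type replicate 1 left out there were 8 member genes and 8 other genes higher (7.46% of all) and 0 and 4 lower (6.81%). With replicate 2 of that genotype left out there were 6 and 4 higher (3.33%) and 0 of each lower (2.01%), and with its replicate 3 left out 9 and 12 higher (7.4%) and 4 and 6 lower (3.71%). Of the 7, the 4 with the smallest p are described here. Cdc42bpb, a kinase that binds Cdc42, read 529, 269 and 402 in wild type against 585, 505 and 704 in knockout, with overlap. Cdc42ep4, a Cdc42 effector that binds septins, read 556, 510.2 and 359 in wild type against 664, 567 and 690.2 in knockout, without overlap. Tpm1, a tropomyosin that coats filaments, read 467, 531 and 882 in wild type against 860.5, 2182 and 712 in knockout, with its highest signal on the knockout array that was also highest in skeletal muscle markers. Arhgap35, the p190A GTPase activator, read 771, 693 and 774 in wild type against 899.7, 832 and 1083 in knockout, and the folds of these 4 were 1.54, 1.37, 1.83 and 1.25. The rest of Arp2/3, WAVE, formin, PAK and capping genes had 0 calls.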

How the data were processed

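Each of the 6 samples is 1 animal on 1 array. Per the submitters' processing notes, the authors made the deposited intensity values with MAS 5.0 in GCOS 1.4, which scales each array; the 2% trimmed mean of each deposited column is 500.0. A genome build for the probes was not given in the sources used here. Probe sets were named through the platform annotation, where 34958 have 1 symbol and 932 several, and 34754 gene identifiers were found in the RefSeq table.

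The deposited intensities were used with their scaling, on the log2 scale. Probe sets at or above the array median on at least 2 of 3 arrays of a genotype, 23546 without the 64 control probe sets, were fitted with limma 3.58.1 in R 4.3.3 (empirical Bayes with an intensity trend) and adjusted by Benjamini-Hochberg over all of them. The script was tested on simulated data. With 3 arrays against 3 an exact permutation test cannot go below 0.1, so none is given. Unadjusted p-values and 95% intervals come from the same fit, and the small number of arrays limits their precision. Intervals and p-values of limma rest on the spread between these animals, drawn for each probe set toward that of probe sets of similar signal.

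All 6 array values are given for members with an unadjusted p under 0.05, or without overlap at a fold of at least 1.2, and for the brightest probe sets of 8 main genes; of related genes, up to 4 in each direction with the smallest p, if under 0.05, which none on the lower side was. The members and lists were chosen with earlier results of these data known. Alternatives were per-chip median scaling, quantile normalization, no filter, a 75th percentile filter, an offset of 50, a fit with a replicate block, a fit without the trend, fits that each leave out 1 array, and the 1-factor test named in the study design (the methods' t-test); 1 more, added after the data were seen, left out both arrays of high muscle signal. Same-numbered animals correlated at -0.034, 0.074 and 0.11 in their deviations, so numbers were not taken as pairs.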

Additional observations from a re-analysis of the deposited data

How the results depend on the processing

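The member count at an adjusted p under 0.05 was 0 in limma in every alternative run, and none of the 16 members called at an unadjusted p under 0.05 changed direction. Several uncalled ones did, among them the brightest probe sets of Tmsb4x (-0.0060 after quantile normalization), Wasl (-0.019) and Arhgap5 (-0.25, both without wild type replicate 3). Leaving out 1 array gave 4 to 15 members higher and 2 to 9 lower at an unadjusted p under 0.05, 1 to 9 member genes higher and 0 to 4 lower, 1 to 12 other pathway genes higher and 0 to 6 lower, and a member median of 0.033 to 0.12. Over all probe sets it gave 391 to 1565 higher, 554 to 1734 lower and 0 to 9 past the adjusted threshold, and an Rtn4 log2 change of -8.79 to -6.82. Without the trend there were 0 adjusted calls, 4 members, 1 member gene and 2 other genes higher, 2 other genes lower, and Rtn4 at -7.62 was not called (limma, adjusted p = 0.536). The methods' t-test, with its fold of at least 1.2, gave 0 adjusted calls, 527 higher and 609 lower over all, 4 members, 2 member genes and 3 other genes higher, and Rtn4 at -7.62 was not called (adjusted p = 0.684). At p alone it had 9 members higher and 2 lower. The share over all is not given for that call, so nothing is read from these member counts. Scaling to the per-chip median moved the median of all tested probe sets by 0.23 on the log2 scale and gave 2 adjusted calls, 2800.0 higher and 263 lower over all, 20 members higher and 1 lower, 11 member genes higher and 0 lower, and 17 other genes higher. Quantile normalization gave 5 members and 1 member gene higher and a median of 0.026. The 75th percentile filter gave 247 lower over all. The fit with no filter also takes in the dim probe sets that were not tested elsewhere. In it there were 2488 lower over all, 7 members and 1 other gene lower, and a median of 0.036. Among the 91 tested members it called 4 lower. Its counts are of a larger set and the share over all is not given, so nothing is read from them. An offset of 50 gave 1 other gene lower, and the mean of a gene's probe sets 0 member genes lower. The replicate block, a pairing by number that the labels do not state, gave 4 adjusted calls over all and 2 other genes lower. Members were 12 higher and 4 lower at an unadjusted p under 0.05. The share over all is not given for this fit either, so nothing is read from these member counts. Without both arrays of high muscle signal, an alternative chosen after seeing the data, there were 3 adjusted calls, 1645 higher and 1432 lower over all, 9 members and 2 member genes lower, and 14 other genes higher and 8 lower. Dim probe sets varied most between arrays, and their values limit what can be read.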
